A study of Mus musculus with 3 samples.

Results

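The cells described here are aortic neutrophils with transcripts of inflammatory mediators, called inflammatory neutrophils. They were chosen by their own counts of unique molecular identifiers (UMIs, the molecules counted). A barcode was taken as a cell when it had at least 200 genes and at most 10% of its UMIs from mitochondrial genes. The cell was called a neutrophil when the calcium-binding protein genes S100a8 and S100a9 reached at least 100 of 10000 UMIs together, at least 1 UMI came from Csf3r, Cxcr2 or Clec4d, and Cd79a, Cd3e and C1qa, markers of B cells, T cells and macrophages, had 0 UMIs. It was called mature when the granule genes Camp, Ltf and Ngp stayed under 10 of 10000 UMIs, and inflammatory when Tnf, Ccl3, Acod1 and Il1a had at least 2 UMIs together. This gave 816 inflammatory neutrophils among 9750 cells past the filters and 17389 barcodes in all, with 298 in the library AAA_14, 486 in AAA_7 and 32 in Sham. Tnf, Ccl3, Acod1 and Il1a chose the cells, so their presence is no finding.

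The series set immune cells from mouse aortas with an aneurysm beside those from normal ones, by droplet single-cell RNA sequencing, which counts the transcripts of each captured cell at their 3′ ends. AAA stands for abdominal aortic aneurysm. All libraries came from the infrarenal aorta of wild-type mice, whose strain, age and sex the labels do not give, after perfusion with phosphate-buffered saline (PBS), enzymatic digestion and selection of live CD45-positive cells on microbeads. AAA_14 was labelled as treated with elastase, an enzyme that breaks down elastic fibres in the wall of the vessel. The library titled AAA_7 carries an aneurysm in its title but PBS in its treatment label, so its treatment is in doubt, and the unit of 7 and 14 is not stated. Sham was labelled as treated with PBS. Aortas of a group were pooled into 1 library, so there was 1 library per group, no replicate and no test, and every difference below is one between libraries. Intervals given in brackets are 95% intervals that cover counting error only.

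Neutrophils leave the bone marrow as short-lived cells filled with ready-made granule proteins, and they lose transcripts of granule genes as they mature. Microbial or tissue-damage signals act through receptors such as Toll-like receptors, the interleukin 1 receptor and the TNF receptors on the transcription factor NF-kB, which switches on cytokine and chemokine genes together with its own inhibitors. Acod1 encodes the enzyme that makes itaconate, a metabolite that activated myeloid cells produce from an intermediate of the citric acid cycle. Ccl3 encodes a chemokine that draws myeloid cells and lymphocytes, Tnf and Il1a encode cytokines that activate neighbouring cells, and Csf1 encodes the growth factor on which macrophages depend.

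The 120 bases before the start of each of these 5 genes are shown because the genes are markers of these cells. All but Csf1 were used to choose the cells, and all are known to answer to inflammatory signals. The windows are from RefSeq for GRCm38.p6 and run 5′ to 3′ on the gene's strand. They lie at chr14:103046892-103047011 (plus strand) for Acod1, chr11:83649379-83649498 (minus) for Ccl3, chr17:35202008-35202127 (minus) for Tnf, chr2:129309973-129310092 (minus) for Il1a and chr3:107760470-107760589 (minus) for Csf1. Capitals mark TATAAA, the TATA box, or GGGNNNNNCC, a loose form of the NF-kB motif, both searched on both strands.
Acod1: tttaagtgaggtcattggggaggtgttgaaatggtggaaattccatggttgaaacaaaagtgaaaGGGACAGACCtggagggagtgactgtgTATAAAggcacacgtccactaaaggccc
Ccl3: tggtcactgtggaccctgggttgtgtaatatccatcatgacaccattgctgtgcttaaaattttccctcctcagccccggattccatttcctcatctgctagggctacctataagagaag
Tnf: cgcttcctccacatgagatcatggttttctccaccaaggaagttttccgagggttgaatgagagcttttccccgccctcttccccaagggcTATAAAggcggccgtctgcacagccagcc
Il1a: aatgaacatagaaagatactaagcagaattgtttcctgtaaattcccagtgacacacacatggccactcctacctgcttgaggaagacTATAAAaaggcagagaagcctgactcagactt
Csf1: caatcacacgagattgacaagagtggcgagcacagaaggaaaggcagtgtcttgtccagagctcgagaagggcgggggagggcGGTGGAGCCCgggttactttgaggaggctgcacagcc
TATAAA was present for 3 of the 5 genes, starting 28 bases before the start of Acod1, 29 before Tnf and 32 before Il1a, and in 6.34% of 32851 windows of this length. GGGNNNNNCC was present for 2 of the 5, Acod1 and Csf1, on the minus strand for Csf1, and in 30.9% of all windows. No 2 matches overlapped. A match describes letters in this window only. In the GENCODE M21 annotation of GRCm38, Acod1 spans bases 103046977 to 103056573 of chromosome 14 and so begins inside the window shown, Ccl3 bases 83647844 to 83649355 of chromosome 11, Tnf bases 35199381 to 35202007 of chromosome 17, Il1a bases 129299610 to 129309972 of chromosome 2 and Csf1 bases 107741048 to 107760469 of chromosome 3.

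The label of these cells was set beside markers, of which those the rule used (S100a8, S100a9, Csf3r, Cxcr2, Clec4d, Tnf, Ccl3, Acod1 and Il1a) describe the choice and do not check it. All 10 neutrophil markers were found in at least 10% of the cells in each library. Of the 5 markers of the inflammatory state, 5 were found in at least 10% of the cells in AAA_14, 5 in AAA_7 and 3 in Sham, where Tnf and Il1a fell short. The summed level of 12 macrophage markers was 606 CPM (counts per 1000000 UMIs of the summed cells) in AAA_14, 1168 in AAA_7 and 187 in Sham, against 15482 CPM in phagocytes of AAA_14 and 16453 in those of AAA_7. C1qa is 0 by the rule, and 8 of the 12 were at 0 in Sham. B cell markers summed to 259, 140 and 173 CPM in AAA_14, AAA_7 and Sham, and T cell markers to 51.1, 63.7 and 79.9 CPM. Their part in the results was not tested.

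The inflammatory neutrophils of AAA_14 held 1174032 UMIs, those of AAA_7 942342 and those of Sham 75056. The median cell of AAA_14 had 3335 UMIs, that of AAA_7 1711 and that of Sham 2173.5, with 5.64%, 0.451% and 0.928% from mitochondrial genes. The libraries held 67243700 UMIs in 10108 barcodes, 13341534 in 3496 and 13677839 in 3785 in the same order, and the mitochondrial limit removed 47.2%, 7.52% and 66.9% of barcodes. What these differences of depth and mitochondrial share contribute was not tested. Libraries shared 15 to 22 barcodes with the others, and 2 inflammatory neutrophils of AAA_7 had such a barcode. Sham is thin: a count of 0 there allows a level of up to 39.97 CPM, against 2.56 CPM in AAA_14 and 3.18 CPM in AAA_7, and 1 of its 32 cells held 7.40% of its UMIs.

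Most cells had enough Acod1 UMIs to enter on that gene alone. Acod1 alone reached 2 UMIs in 91.9% of the inflammatory neutrophils of AAA_14, 95.5% of those of AAA_7 and 84.4% of those of Sham. Without its Acod1 UMIs a cell would not have entered in 149 of 298 cases in AAA_14, 35 of 486 in AAA_7 and 17 of 32 in Sham, so most AAA_7 cells would also have entered on the other genes. Tnf and Ccl3 were found together in 25.2% of cells in AAA_14, 74.3% in AAA_7 and 9.38% in Sham. All 4 genes were found in 7.38% of cells in AAA_14, 19.3% in AAA_7 and 0 of 32 cells in Sham, a count that allows up to 9.38% of cells with a UMI of each gene at this depth. The 4 genes summed to a median of 39.9 of 10000 UMIs per cell in AAA_14, 195 in AAA_7 and 34.8 in Sham. Of these UMIs, Acod1 supplied 57.7% in AAA_14, 35.1% in AAA_7 and 60.96% in Sham, and Tnf 9.42%, 19.0% and 1.37%. The AAA_14 and Sham cells thus carried mostly Acod1, and the AAA_7 cells Ccl3, Acod1 and Tnf together.

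Just inside the threshold, 30 cells of AAA_14 had 2 UMIs of the 4 genes, and just outside it 48 had 1. They had 7065 and 4980 CPM of Il1b, the gene of interleukin 1 beta, and 5180 and 4620 CPM of Cxcl2, a chemokine that draws neutrophils. In AAA_7, 7 cells stood just inside and 12 just outside, and in Sham 5 and 5.

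Across single cells the levels were spread widely. Acod1 had a median of 27.5 of 10000 UMIs per cell in AAA_14 (range 0 to 199.75), 70.9 in AAA_7 (0 to 349) and 27.1 in Sham (0 to 87.7). Ccl3 had a median of 0 in AAA_14 (0 to 296), 73.3 in AAA_7 (0 to 534) and 2.78 in Sham (0 to 101). Tnf had a median of 0 in AAA_14 (0 to 106), 18.6 in AAA_7 (0 to 315) and 0 in Sham (0 to 25.6). The cells of the 3 libraries overlapped for every one of these genes, with the AAA_7 cells highest by median. Il1b, which the rule did not use, was near even, with a median of 130 of 10000 UMIs in the AAA_14 cells, 146 in the AAA_7 cells and 90.4 in the Sham cells, and only 4 of 298, 10 of 486 and 1 of 32 cells had none.

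**Figure D1:**
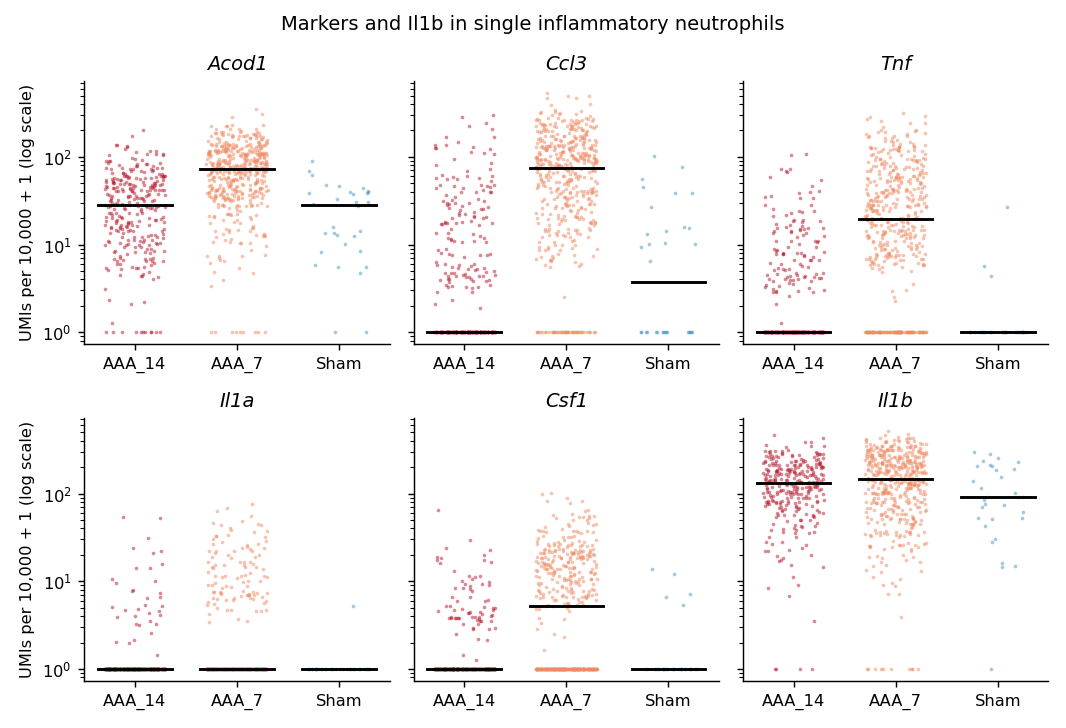
UMIs of 6 genes per 10000 UMIs of a cell, plus 1, on a log axis, with 1 point per inflammatory neutrophil and a line at the median of each library (AAA_14, AAA_7 and Sham from left to right). The AAA_7 cells lie highest for Ccl3 (median 73.3) and Tnf (18.6), while Il1b lies at 130, 146 and 90.4.

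Nearly all neutrophils of AAA_7 were inflammatory neutrophils. They were 298 of 566 neutrophils in AAA_14, a share of 52.7% (48.4 to 56.8%), 486 of 524 in AAA_7, a share of 92.7% (90.2 to 94.8%), and 32 of 82 in Sham, a share of 39.0% (28.4 to 50.4%), with exact Clopper-Pearson intervals. The interval of AAA_7 lay above both others, and those of AAA_14 and Sham overlapped. Neutrophils rich in the granule genes Camp, Ltf and Ngp made up 30.2% (26.5 to 34.2%) in AAA_14, 4.58% (2.96 to 6.74%) in AAA_7 and 45.1% (34.1 to 56.5%) in Sham. Mature neutrophils with fewer than 2 UMIs of the 4 mediators made up 17.1% in AAA_14, 2.67% in AAA_7 and 15.9% in Sham.

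Among mature neutrophils alone the share of inflammatory cells was 75.4% (70.9 to 79.6%) in AAA_14, 97.2% (95.3 to 98.5%) in AAA_7 and 71.1% (55.7 to 83.6%) in Sham. With every cell thinned to 1000 UMIs before the rule was applied, the shares of neutrophils were 43.2% in AAA_14, 87.7% in AAA_7 and 30.1% in Sham. With a mitochondrial limit of 5%, they were 38.4% in AAA_14, 93.0% in AAA_7 and 39.5% in Sham, which put AAA_14 below Sham. The position of AAA_14 relative to Sham therefore depended on that limit, and that of AAA_7 did not. Inflammatory neutrophils were 5.64% of all cells past the filters in AAA_14, 15.1% in AAA_7 and 2.59% in Sham, shares that the bead selection and the mitochondrial limit can set.

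**Figure D2:**
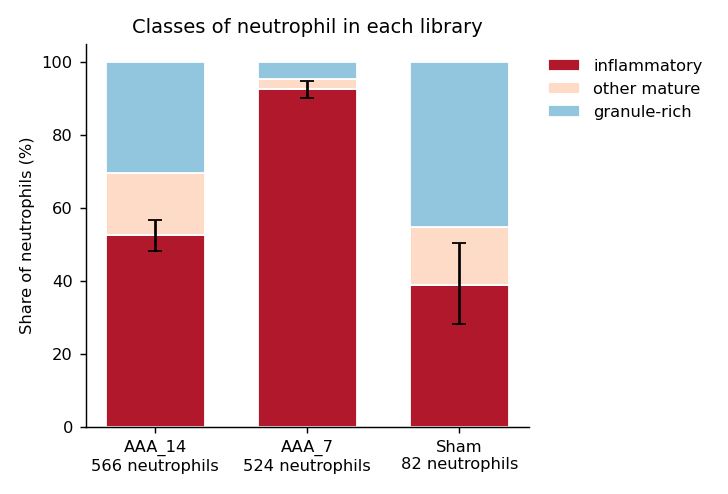
Percent of the neutrophils of each library (AAA_14, AAA_7 and Sham from left to right) that were inflammatory, other mature or granule-rich, with exact 95% intervals of counting error. The inflammatory class stands at 52.7%, 92.7% and 39.0%.

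The 5 marker genes had their highest CPM in AAA_7. For the 4 genes that chose the cells this is a description, since the rule asks for a fixed number of UMIs in cells whose depth differs between libraries and so partly sets these levels. Tnf had 524 CPM (483 to 567) in AAA_14, 4028 (3901 to 4158) in AAA_7 and 53.3 (14.5 to 136) in Sham, where it rested on 4 UMIs. Its log2 ratio was -2.94 (-3.07 to -2.82) for AAA_14 over AAA_7 and 6.07 (4.88 to 8.12) for AAA_7 over Sham. Ccl3 had 1715 CPM in AAA_14, 9403 in AAA_7 and 1452 in Sham, with log2 ratios of -2.45 for AAA_14 over AAA_7 and 2.69 for AAA_7 over Sham. AAA_14 and Sham did not differ beyond counting error in Ccl3 (log2 ratio 0.23, interval -0.04 to 0.53), while they did in Tnf (3.13, interval 1.93 to 5.18). Acod1 was the most even of the 5, with 3212 CPM in AAA_14, 7459 in AAA_7 and 2372 in Sham. Il1a had 112 CPM in AAA_14, 351 in AAA_7 and 13.3 in Sham, the last on 1 UMI.

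Csf1 was the one marker of the 5 that played no part in choosing the cells, although it was listed with earlier results known. It had 147 CPM in AAA_14, 978 in AAA_7 and 79.9 in Sham, with a log2 ratio of -2.74 (-2.98 to -2.50) for AAA_14 over AAA_7, 3.50 (2.49 to 5.06) for AAA_7 over Sham and 0.76 (-0.28 to 2.34) for AAA_14 over Sham. A Csf1 UMI was found in 24.5% of the inflammatory neutrophils of AAA_14, 52.7% of those of AAA_7 and 15.6% of those of Sham. B cells served as a rough measure of free RNA, which they cannot tell apart from transcripts of their own. Csf1 was found in 2.53%, 1.05% and 1.21% of them at median depths of 4756, 1945.5 and 2404 UMIs. With cells thinned to 1000 UMIs, which left out 3, 47 and 1 inflammatory neutrophils as too shallow, the Csf1 shares were 9.83% in AAA_14, 42.6% in AAA_7 and 6.45% in Sham. Among inflammatory neutrophils, Csf1 was thus most widespread in AAA_7 at equal depth as well. It was not confined to them. Mature neutrophils with 0 UMIs of the 4 mediators had 44.6 CPM in AAA_14 (49 cells), 869 in AAA_7 (2 cells) and 834 in Sham (8 cells). Those with 1 UMI had 45.6 CPM in AAA_14 (48 cells), 265 in AAA_7 (12 cells) and 0 in Sham (5 cells).

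Detection of Tnf, Acod1 and Ccl3 is given as a description, since the rule chose cells with UMIs of these genes. A Tnf UMI was found in 39.9% of inflammatory neutrophils of AAA_14, 78.8% in AAA_7 and 9.38% in Sham, against 6.40%, 8.38% and 1.69% of B cells of the same libraries. Acod1 was found in 96.3%, 98.1% and 93.8% of them, against 3.96%, 7.07% and 0.484% of B cells. Ccl3 was found in 49.7%, 91.2% and 50.0%, against 9.51%, 15.4% and 4.60%. Thinned to 1000 UMIs, Tnf was found in 25.1% of inflammatory neutrophils of AAA_14, 70.4% in AAA_7 and 6.45% in Sham.

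These cells held a large part of some transcripts of the whole library. They carried 46.3% of all Acod1 UMIs of cells past the filters in AAA_14 and 64.1% in AAA_7, where phagocytes carried 2.66% and 3.90%. Phagocytes are here cells with UMIs of Csf1r, Adgre1, C1qa or Ccr2, no Csf3r or Cxcr2 UMIs, and S100a8 and S100a9 under the limit for neutrophils. The class thus leaves out macrophages and monocytes rich in S100a8 and S100a9, and dendritic cell markers reached 496 CPM in it in AAA_14. Phagocytes were left out of this comparison for Sham, where the class carried markers of natural killer cells. For Csf1 the inflammatory neutrophils carried 20.0% in AAA_14 and 57.1% in AAA_7, and for Il1a 16.5% and 50.1%. Tnf and Ccl3 were shared more widely. The inflammatory neutrophils carried 11.01% of Tnf UMIs in AAA_14 and 39.1% in AAA_7, and phagocytes 24.7% and 18.0%. They carried 12.8% of Ccl3 UMIs in AAA_14 and 46.2% in AAA_7. Il23a, a subunit of interleukin 23, was largely theirs in both, at 67.3% in AAA_14 and 55.4% in AAA_7. Ccl4, a chemokine close to Ccl3, was carried more by phagocytes (32.4% and 28.5%) than by inflammatory neutrophils (4.60% and 25.8%). These shares move with the number of cells of each class in a library. For Acod1, Tnf, Ccl3 and Il1a the rule chose cells with their UMIs and so raises the shares by construction. They are given as a description. Csf1, Il23a and Ccl4 played no part in the rule.

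**Figure D3:**
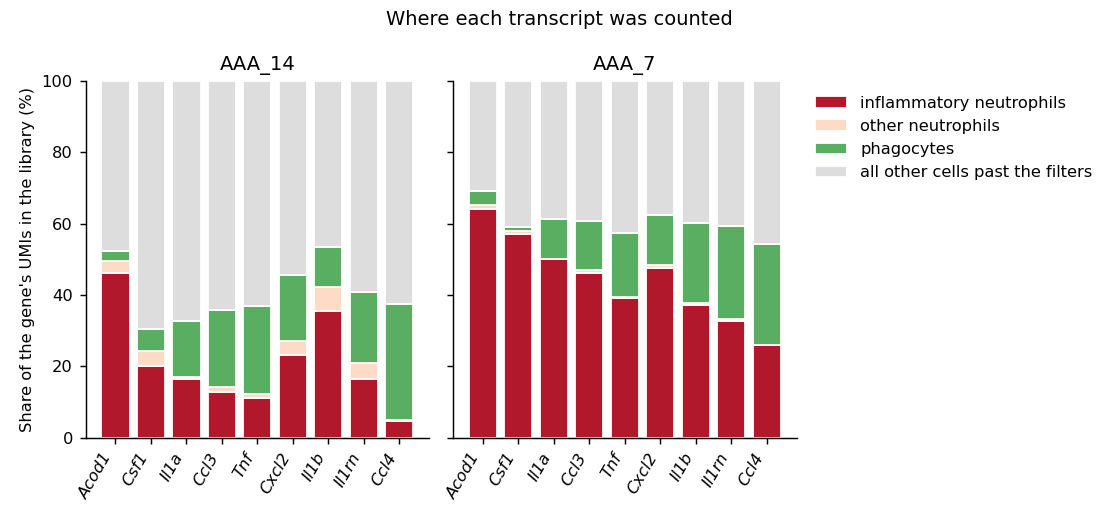
Percent of a gene's UMIs among all cells past the filters that lay in inflammatory neutrophils, other neutrophils, phagocytes and all other cells, for AAA_14 and AAA_7. Inflammatory neutrophils held 46.3% and 64.1% of Acod1 but 11.01% and 39.1% of Tnf. Both genes helped to choose the cells, which raises these shares.

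Within the inflammatory neutrophils, NF-kB genes and receptors for microbial and damage signals were more often 2-fold lower than 2-fold higher in AAA_14 against AAA_7. Granule genes and genes of circulating neutrophils were more often higher. Cytokines went both ways, as did chemokines until 2 AAA_14 cells with precursor or fibroblast markers were left out. Chemokines were then more often lower. Of 7663 genes with at least 10 UMIs in both sums together, 1125 were at least 2-fold higher in AAA_14, which is 14.7% of genes, and 735 at least 2-fold lower, which is 9.59%. Asking also that the counting interval leave out 0 gave 798 higher (10.4%) and 549 lower (7.16%). The median log2 ratio over all these genes was 0.11.

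Of 19 listed NF-kB and feedback genes, 18 were measured in AAA_14 over AAA_7, of which 12 were at least 2-fold lower and 0 higher by as much. The list's median log2 ratio was -1.28, or -0.78 with cells thinned before the rule was applied. Nfkbia, the inhibitor that NF-kB itself induces, had 5726 CPM in AAA_14, 13272 in AAA_7 and 3171 in Sham. Nfkb1, which encodes an NF-kB subunit, had 122 CPM in AAA_14, 570 in AAA_7 and 107 in Sham. Tnfaip3, which encodes an enzyme that ends NF-kB signalling, was closer, with 1488 CPM in AAA_14, 2074 in AAA_7 and 826 in Sham. For these genes AAA_7 stood above the other libraries, and AAA_14 and Sham lay close for Nfkb1 (log2 ratio 0.11, interval -0.82 to 1.43).

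Receptors for microbial and damage signals had a median of -0.94 in AAA_14 over AAA_7, with 9 of 19 measured genes at least 2-fold lower and 1 higher. Cd14, a co-receptor for lipopolysaccharide, had 1429 CPM in AAA_14, 4058 in AAA_7 and 320 in Sham. Nlrp3, the sensor of an inflammasome that matures interleukin 1 beta, had 606 CPM in AAA_14, 3020 in AAA_7 and 1119 in Sham. Clec4e, a receptor for microbial glycolipids and damaged cells, had 2225 CPM in AAA_14, 5539 in AAA_7 and 1452 in Sham. AAA_7 was again highest for each, but AAA_14 was above Sham for Cd14 and below it for Nlrp3.

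Chemokines, leaving out Ccl3, were split, with a median of -0.76, 4 of 13 measured genes at least 2-fold lower and 3 higher. The split leaned on 2 AAA_14 cells with precursor or fibroblast markers, described below. Without them 5 of 13 were lower and 1 higher, with a median of -0.74. Ccl4 had 2106 CPM in AAA_14, 10647 in AAA_7 and 1412 in Sham. Cxcl2, the most abundant chemokine of these cells, had 21378 CPM in AAA_14, 39844 in AAA_7 and 21517 in Sham, so that AAA_14 and Sham differed by less than counting error (log2 ratio -0.01, interval -0.08 to 0.06). Cxcl1, which also draws neutrophils, had 71.5 CPM in AAA_14, 444 in AAA_7 and 13.3 in Sham, the last on 1 UMI. Ccl6 went the other way, with 1112 CPM in AAA_14, 461 in AAA_7 and 2998 in Sham.

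Cytokines and growth factors split. Of 21 measured genes of this list, which leaves out Tnf and Il1a, 5 were at least 2-fold lower in AAA_14 than in AAA_7 and 4 at least 2-fold higher. Il1rn, the natural blocker of the interleukin 1 receptor, had 575 CPM in AAA_14, 2132 in AAA_7 and 613 in Sham. Osm, the gene of oncostatin M, a cytokine of the interleukin 6 family, had 1352 CPM in AAA_14, 235 in AAA_7 and 1985 in Sham, with log2 ratios of 2.52 (2.32 to 2.74) for AAA_14 over AAA_7 and -3.08 (-3.39 to -2.77) for AAA_7 over Sham. Osm was thus the reverse of Csf1 and Il1rn. Il1b differed little, with 12407 CPM in AAA_14, 15940 in AAA_7 and 10579 in Sham.

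Genes of survival and apoptosis had a median of -0.70 in AAA_14 over AAA_7, with 9 of 20 genes at least 2-fold lower and 1 higher. Genes with opposite roles were lower together. Cflar, which blocks the apoptotic enzyme caspase 8, had 147 CPM in AAA_14, 805 in AAA_7 and 66.6 in Sham. Bcl2l11, which encodes the death-promoting protein Bim, had 217 CPM in AAA_14, 1087 in AAA_7 and 66.6 in Sham. Mcl1, on which neutrophil survival depends, was near even, with 2847 CPM in AAA_14, 3527 in AAA_7 and 2305 in Sham. The Bcl2a1 genes are near-identical copies between which the counting could split reads, and are not read one by one.

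Among antioxidant genes, 8 of 20 measured were at least 2-fold lower in AAA_14 than in AAA_7 and 2 at least 2-fold higher. Sqstm1, an adaptor of selective autophagy, had 231 CPM in AAA_14, 1236 in AAA_7 and 133 in Sham. Hmox1, which breaks down heme, had 124 CPM in AAA_14, 688 in AAA_7 and 187 in Sham. Slc7a11, a cystine importer, had 1208 CPM in AAA_14, 3550 in AAA_7 and 2252 in Sham, and was thus lower in AAA_14 than in either other library.

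Granule protein genes had a median of 1.41, with 15 of 23 at least 2-fold higher in AAA_14 and 1 lower. Part of this came from 1 cell of AAA_14 with 35634 UMIs, which held 1425 UMIs of the granulocyte precursor genes Elane, Prtn3, Mpo, Ctsg and Ms4a3, or 98.7% of those of all AAA_14 members, and 2 UMIs of the 4 mediators. A second AAA_14 cell, with 21966 UMIs, held 730 UMIs of fibroblast markers, or 96.8%. Without these 2 cells, a choice made after seeing the data, 11 of 19 measured granule genes still passed 2-fold towards AAA_14 and 1 towards AAA_7, with a median of 1.28. Camp, Ltf and Ngp in this list were capped by the rule. With cells thinned before the rule was applied, the list's median was 0.69.

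Among single genes, Mmp8 and Ly6g had their lowest CPM in AAA_7, while Mmp9 differed less between libraries. Mmp8, a neutrophil collagenase, had 518 CPM in AAA_14, 194 in AAA_7 and 1186 in Sham, where 1 cell held 32.6% of its UMIs. Ly6g, a surface protein of mature mouse neutrophils, had 185 CPM in AAA_14, 19.1 in AAA_7 and 280 in Sham. Its log2 ratio was 3.24 (2.58 to 4.06) for AAA_14 over AAA_7 and -0.63 (-1.25 to 0.12) for AAA_14 over Sham, so AAA_14 and Sham did not differ beyond counting error. Mmp9, a gelatinase stored in neutrophil granules, was even, with 1026 CPM in AAA_14, 820 in AAA_7 and 946 in Sham.

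Genes of mature circulating neutrophils had a median of 0.64 in AAA_14 over AAA_7, with 5 of 18 at least 2-fold higher and 0 lower. Retnlg, a secreted resistin-like protein abundant in blood neutrophils, had 10068 CPM in AAA_14, 1770 in AAA_7 and 24075 in Sham, where 1 cell held 20.4% of its UMIs. Csf3r, the receptor for granulocyte colony-stimulating factor, had 2116 CPM in AAA_14, 1032.53 in AAA_7 and 1559 in Sham. The rule asks for a UMI of Csf3r, Cxcr2 or Clec4d in each cell, which bounds Csf3r from below. It also sets a minimum for S100a8 and S100a9. For members of the circulating neutrophil list that the rule used, the values are a description, here and in the other pairs of libraries. The immediate early gene Fos, which tissue dissociation is known to raise, had 2251 CPM in AAA_14, 313 in AAA_7 and 4903 in Sham, and its part in the other differences was not tested.

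AAA_7 was higher than Sham in NF-kB, chemokine and interferon-inducible genes and lower in granule genes. Of 5546 genes, 1473 were at least 2-fold higher in AAA_7, which is 26.6%, and 864 at least 2-fold lower, which is 15.6%. With the counting interval leaving out 0, 439 were higher (7.92%) and 319 lower (5.75%). The median over all genes was 0.18, or 0 with genes at 0 UMIs in Sham set to their bound of 3 counts. The comparison shares the AAA_7 library with AAA_14 over AAA_7, so the one adds no independent evidence to the other.

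Of 18 measured NF-kB genes, 14 were at least 2-fold higher in AAA_7 than in Sham and 0 lower, with a median of 1.56. Of 28 measured genes inducible by type I interferon, 24 were at least 2-fold higher and 0 lower, with a median of 2.40, or 1.91 at the bound. Of 13 measured genes inducible by interferon gamma, 11 were higher and 0 lower, and the lists share genes. Chemokines had 8 of 11 higher and 1 lower, pattern recognition receptors 11 of 17 higher and 2 lower, and survival genes 11 of 20 higher and 0 lower. Granule genes had 2 of 17 higher and 9 lower, and genes of circulating neutrophils 0 of 18 higher and 6 lower. Apart from granule and circulating neutrophil genes, these groups were thus mostly higher in AAA_7.

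AAA_14 over Sham, the pair in which no label is in doubt, was led by interferon-inducible genes. Of 6435 genes, AAA_14 had at least 2-fold more of 1475, which is 22.9%, and at least 2-fold less of 866, which is 13.5%. With the counting interval leaving out 0, 297 were higher (4.62%) and 196 lower (3.05%). The median over all genes was 0.22, or 0 at the bound. Of 28 measured type I interferon-inducible genes, 26 were at least 2-fold higher and 0 lower, with a median of 2.84, or 2.32 at the bound, and 24 of the 26 also had intervals above 0. Of 16 measured interferon gamma-inducible genes, 12 were at least 2-fold higher and 0 lower, with a median of 2.49, or 1.11 at the bound.

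Single interferon-inducible genes set both AAA libraries above Sham. Rsad2, which encodes the antiviral enzyme viperin, had 1087 CPM in AAA_14, 981 in AAA_7 and 133 in Sham. Ifit1, which binds foreign RNA, had 474 CPM in AAA_14, 451 in AAA_7 and 39.97 in Sham, the last on 3 UMIs, with a log2 ratio of 3.35 (2.01 to 5.85) for AAA_14 over Sham and 0.07 (-0.11 to 0.26) for AAA_14 over AAA_7. The AAA libraries were thus within counting error of each other for Ifit1. Ifit3 had 304 CPM in AAA_14, 137 in AAA_7 and 0 UMIs in Sham, which makes it at least 7.61-fold higher in AAA_14 and at least 3.42-fold higher in AAA_7 than in Sham. Slfn5 had 384 CPM in AAA_14, 404 in AAA_7 and 0 UMIs in Sham, at least 9.61-fold higher in AAA_14 and at least 10.1-fold higher in AAA_7 than in Sham. Irf7, a transcription factor that amplifies the interferon response, had 233 CPM in AAA_14, 122 in AAA_7 and 13.3 in Sham.

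Isg15, a ubiquitin-like protein, was also above Sham in both AAA libraries. It had 507 CPM in AAA_14, 1316 in AAA_7 and 293 in Sham, so it was highest in AAA_7. Slfn1 did not follow and was even, with 491 CPM in AAA_14, 559 in AAA_7 and 586 in Sham. Mx1 and Mx2 had no values here. In AAA_14 over AAA_7 the list as a whole had 3 of 28 measured genes at least 2-fold higher and 1 lower, with a median of 0.39, close to the 0.11 of all genes.

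Genes of MHC class I, which present peptides to CD8 T cells, had 9 of 12 at least 2-fold higher in AAA_14 than in Sham and 0 lower, with a median of 1.38. H2-K1 had 1242 CPM in AAA_14, 1265 in AAA_7 and 440 in Sham. MHC class II genes had 6 of 7 measured higher and 0 lower in AAA_14 than in Sham, but 1 cell held 39.4% of the Cd74 UMIs of AAA_14, and Cd74 was found in fewer of these cells (63.1%) than of B cells (99.3%), a main source of it. The NF-kB list had 3 of 18 genes at least 2-fold higher and 2 lower, with a median of 0.48, and the circulating neutrophil list 1 higher and 1 lower of 18, with a median of 0.04. Granule genes had 7 of 23 higher and 2 lower, but 1 of 18 higher and 3 lower without the 2 AAA_14 cells that carried precursor or fibroblast markers. Survival genes had 11 of 18 higher and 0 lower, 3 of them with an interval above 0.

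**Figure D4:**
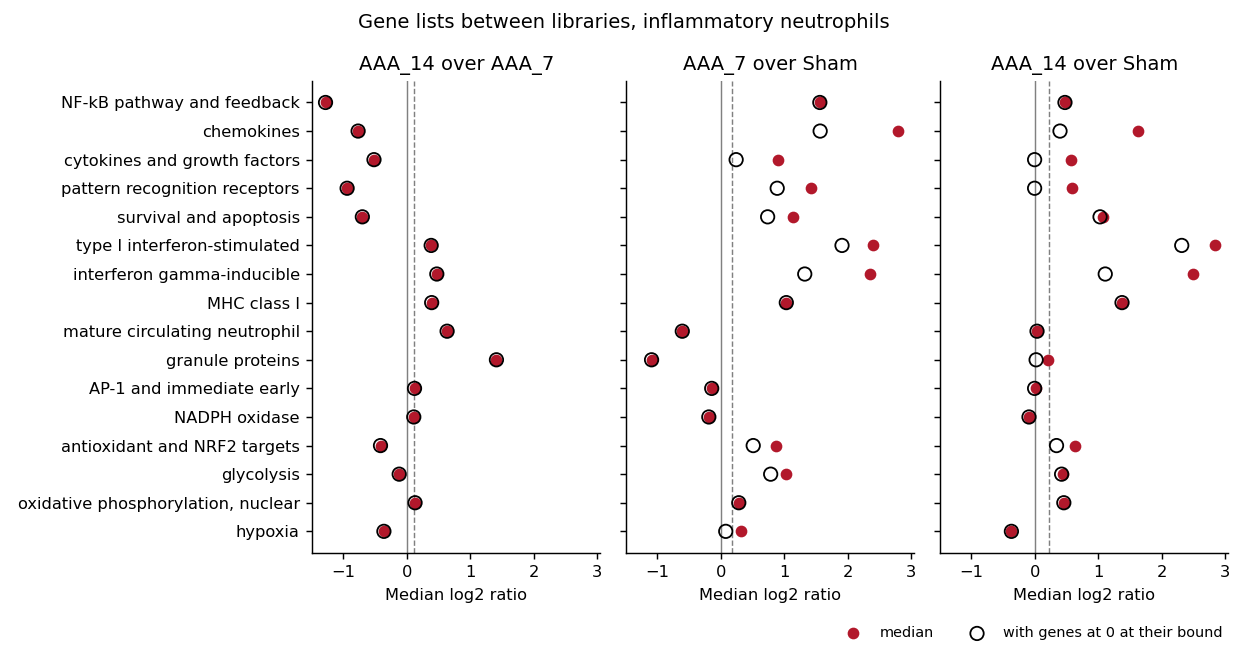
Median log2 ratio of 16 gene lists in the inflammatory neutrophils for AAA_14 over AAA_7, AAA_7 over Sham and AAA_14 over Sham. Filled points are medians, open points the medians with genes at 0 UMIs in 1 library set to their bound, and the dashed line is the median of all genes. The NF-kB list lies at -1.28, 1.56 and 0.48 and the type I interferon list at 0.39, 2.40 and 2.84.

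**Figure D5:**
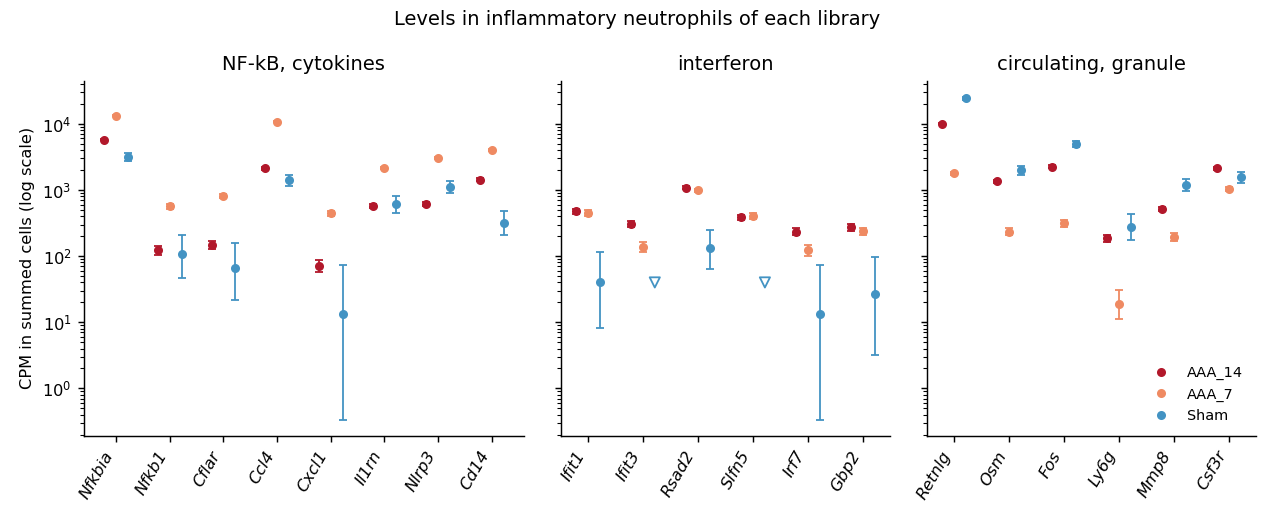
CPM of named genes in the inflammatory neutrophils of AAA_14, AAA_7 and Sham on a log axis, with exact Poisson intervals of counting error. An open triangle marks a gene with 0 UMIs, drawn at the limit that 3 counts allow. Nfkbia peaks in AAA_7 at 13272 CPM, Ifit1 is low in Sham at 39.97 CPM, and Retnlg is low in AAA_7 at 1770 CPM.

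The genes furthest apart between libraries were ranked among those that had 30 or more UMIs and 50 or more CPM in the library where they were higher. Ranked as planned, the genes furthest up in AAA_14 over AAA_7 were Elane, Prtn3, Ctsg, Serping1, Mpo, Col3a1, Dcn, Sparc, Ms4a3 and Cxcl12, which are precursor and fibroblast genes and rested on the 2 AAA_14 cells named above. Prss2 led the genes further down and came from 1 cell of AAA_7. A ranking without those 2 cells, and without genes with over 25% of their UMIs in 1 cell, was therefore added after the data were seen. It put Mtus1 first, with a log2 ratio of 3.49, followed by Adam19 (3.37) and Ly6g (3.31). Padi4 (2.79), which encodes the enzyme that citrullinates histones when neutrophils release their chromatin, Nlrp12 (2.59), Osm (2.58) and Retnlg (2.58) were also among the first 13.

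Furthest down in that ranking were Chil3 (-4.36), a chitinase-like secreted protein, Saa3 (-4.11), an acute-phase protein, and Lsmem1 (-3.99). Saa3 was found in 4.70% of inflammatory neutrophils and 4.29% of B cells in AAA_14, and in 21.6% and 19.4% in AAA_7. Detection thus did not set these cells apart from B cells. It does not speak to the amount per cell, and the inflammatory neutrophils of AAA_7 held 851 Saa3 UMIs. The part of free RNA in them was not tested. Zfp263 had 51.1 CPM in AAA_14, 408 in AAA_7 and 66.6 in Sham. Morrbid (-2.83), a long noncoding RNA known in mice to restrain Bcl2l11 in short-lived myeloid cells, had 23.8 CPM in AAA_14, 181 in AAA_7 and 93.3 in Sham. Bcl2l11 and Morrbid were thus both lower in AAA_14 than in AAA_7.

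Against Sham, several ranked genes had 0 UMIs in Sham. Mefv, which encodes the inflammasome protein pyrin, had 104 CPM in AAA_14 and 367 in AAA_7, at least 2.60-fold and at least 9.19-fold higher than in Sham. Tnfsf9, the ligand of the T cell receptor 4-1BB, had 167 CPM in AAA_7, at least 4.17-fold higher than in Sham. Il4ra, a subunit of the receptors for interleukins 4 and 13, had 192 CPM in AAA_14 and 101 in AAA_7, at least 4.79-fold and at least 2.52-fold higher than in Sham. F10, which encodes coagulation factor X, had 242 CPM in AAA_7, at least 6.05-fold higher than in Sham.

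Impact, which encodes a regulator of translation under stress, was the gene furthest down against Sham in both AAA libraries once genes concentrated in 1 cell were left out. It had 106 CPM in AAA_14, 26.5 in AAA_7 and 679 in Sham, with log2 ratios of -2.69 (-3.17 to -2.19) for AAA_14 over Sham and -4.66 (-5.43 to -3.96) for AAA_7 over Sham. In Sham, Impact was found in 71.9% of inflammatory neutrophils and 18.4% of B cells. Hilpda, a lipid droplet protein induced by hypoxia, had 230 CPM in AAA_14, 189 in AAA_7 and 839 in Sham. Thbs1, which encodes thrombospondin 1, had 300 CPM in AAA_14, 935 in AAA_7 and 2372 in Sham, where 1 cell held 32.6% of its UMIs.

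Within AAA_14, the inflammatory neutrophils were set beside the 97 mature neutrophils with 0 or 1 UMI of the 4 mediators. The rule made this contrast, so it is given as a description. Of 7092 genes, 771 were at least 2-fold higher in inflammatory neutrophils, which is 10.9%, and 688 at least 2-fold lower, which is 9.70%. NF-kB genes had 12 of 18 at least 2-fold higher and 0 lower, interferon gamma-inducible genes 11 of 17 higher and 0 lower, and type I interferon-inducible genes 7 of 28 higher and 0 lower. Granule genes had 1 of 23 higher and 8 lower, or 1 of 19 higher and 4 lower without the cells carrying fibroblast or precursor markers. Chemokines had a median log2 ratio of 0.60, and of 1.79 without those cells, of which 4 were among the other mature neutrophils.

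Single genes of that contrast showed large steps. Ccl4 had 2106 CPM in inflammatory and 204 CPM in other mature neutrophils of AAA_14, with a log2 ratio of 3.36, and in AAA_7, with 14 other mature neutrophils, of 3.86. Ccrl2, an atypical receptor that presents the attractant chemerin, had 3278 CPM in inflammatory and 456 CPM in other mature neutrophils of AAA_14. Gbp2, an interferon-inducible GTPase, had 271 CPM in inflammatory and 31.8 CPM in other mature neutrophils of AAA_14. Il23a had 183 UMIs in inflammatory neutrophils and 0 in other mature neutrophils of AAA_14. Lyz2, the lysozyme gene, went the other way, with 1847 CPM in inflammatory and 3390 CPM in other mature neutrophils of AAA_14.

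The cells also varied by degree. In AAA_14, the 99 cells highest in the 4 mediators had a median of 102 of their UMIs per 10000, and the 100 lowest 10.3. The NF-kB list summed to 23776 CPM in the high cells and 6050 CPM in the low cells. Granule genes summed to 4953 CPM in the high and 16420 CPM in the low cells, or 14563 CPM in the low cells without the 2 that carried precursor or fibroblast markers. In AAA_7, the 162 high cells had a median of 343 per 10000 and the 162 low cells 77.3, and the NF-kB list summed to 39217 and 18958 CPM. Granule genes differed less there, at 4457 CPM in the high and 5709 CPM in the low cells. Even the low cells of AAA_7 thus had more NF-kB transcript than the whole AAA_14 group, at 13618 CPM. The high and low cells were of similar depth, at 3394 and 3508.5 UMIs in AAA_14 and 1829 and 1643 in AAA_7. Cxcl1 had 186 CPM in high and 2.14 CPM in low cells of AAA_14, the latter on 1 UMI, and 855 and 124 CPM in those of AAA_7. Il23a had 455 CPM in high and 15.01 CPM in low cells of AAA_14, and 364 and 33.2 CPM in those of AAA_7. Both genes were thus concentrated in the cells with the most mediator transcript in each library. Cell membership of these groups came from the same counts, so they describe a gradient and test nothing.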

How the data were processed

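The deposited values are raw UMI counts per gene and barcode for 3 libraries, which the authors produced, per the file headers, with Cell Ranger 6.1.2. Besides Cell Ranger, the submitters' processing notes list Seurat and mm10 without saying what each was used for. A v2 kit was used, per the labels' protocols. The sources used here give no annotation, read filter or doublet removal before deposit. The files hold 32285 genes and barcodes with at least 500 UMIs.

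Groups followed the sample titles. Counts were summed over the inflammatory neutrophils of each library and divided by their total (CPM). Before log2 ratios of these CPM were taken, 0.5 counts were added to both sums, and the intervals of ratios are exact conditional binomial ones. Shares carry exact Clopper-Pearson intervals, and CPM values exact Poisson intervals. All are 95% intervals. Genes with at least 10 UMIs in both sums together were measured, and "called" means at least 2-fold apart. With 1 library per group there is no p-value. A fold against 0 UMIs was computed against 3 counts in that library, and the limit of a share of 0 is likewise 3 cells. Such a fold, given as "at least", leaves out the counting error of the other library. It can lie above the lower end of the 95% interval. B cells had at least 2 UMIs of Cd79a and Ms4a1 together, and phagocytes and T cells were set by similar rules on counts.

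The cell members, the 32 gene lists and the tests were chosen with earlier results of these data known. Named genes were the 10 furthest up and down in each pair of libraries, the 10 furthest up and down against other mature neutrophils, the 5 markers, and in each list the members with the most UMIs and the largest and smallest ratios. A ranked gene had at least 30 UMIs, 50 CPM and a level no lower than 0.1 of that in any other class, and haemoglobin, antigen receptor, sex-linked, ribosomal and mitochondrial genes were left out. Other genes named in the text are members of the lists chosen after their values were seen.

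Scrublet in scanpy 1.11.5 called 1, 2 and 0 cells of AAA_14, AAA_7 and Sham as doublets by its automatic threshold, which was taken as a failed call, so no doublets were removed in the values reported. The computations were tested on simulated counts with known changes. Python 3.11.15, numpy 2.4.6, scipy 1.17.1, pandas 2.3.3, R 4.3.3 and edgeR 4.0.16 (for trimmed mean of M-values, TMM, factors) were used. The alternatives were mitochondrial limits of 5% and 20%, at least 4 mediator UMIs, cells thinned to 1000 UMIs, the highest doublet scores left out, TMM factors, 5 counts added, no filter on low counts, and the deepest cell left out. Promoter windows came from RefSeq for GRCm38.p6 and gene positions from GENCODE M21, which holds 99.6% of the genes in the files.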

Additional observations from a re-analysis of the deposited data

How the results depend on the processing

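No paired analysis was possible because each group was 1 library and the labels carry no replicate numbers. Of 1408 list medians under the alternatives, 1336 stayed within the interval over list members and 124 changed sign, 7 of them where that interval left out 0. Of 1045 ratios of named genes 876 stayed within their counting interval and 28 changed sign, 25 of them where the interval left out 0, and of 66 counts of genes 48 stayed within 1.5 times. The NF-kB median stayed between -1.36 and -0.78 for AAA_14 over AAA_7 and between 1.15 and 1.74 for AAA_7 over Sham, but between -0.25 and 0.58 for AAA_14 over Sham. The type I interferon median stayed between 1.12 and 2.94 for AAA_14 over Sham and between 0.66 and 2.57 for AAA_7 over Sham. The granule median for AAA_14 over AAA_7 stayed between 0.69 and 1.43. For AAA_14 over AAA_7, cells thinned before the rule gave an NF-kB median of -0.78 and a granule median of 0.69. The main values were -1.28 and 1.41, so both medians shrank at equal depth but kept their sign. Antioxidant and type I interferon medians moved further out with thinning, from -0.41 to -0.86 and from 0.39 to 0.82. The chemokine median for AAA_14 over Sham lay between -0.23 and 1.73. TMM factors moved all log2 ratios by -0.08, 0.18 and 0.10 for AAA_14 over AAA_7, AAA_7 over Sham and AAA_14 over Sham.

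Sham is shallow. Adding 5 counts adds 66.6 CPM to a gene in Sham, 4.26 in AAA_14 and 5.31 in AAA_7, and so lowers ratios over Sham by construction. With 5 counts added, genes higher and lower numbered 90 and 4284 for AAA_14 over Sham and 152 and 3399 for AAA_7 over Sham, and 583 were higher for AAA_14 over AAA_7. Of 128 list medians 38 then changed sign, and 4 of these had an interval that left out 0, those of antioxidant (-0.19) and immune checkpoint (-0.10) genes for AAA_7 over Sham, and survival (-0.17) and transcription factor (-0.10) genes for AAA_14 over Sham. Without a filter on low counts, 3576 genes were higher and 2295 lower for AAA_14 over AAA_7, 5032 lower for AAA_14 over Sham and 4609 lower for AAA_7 over Sham. With genes predicted to have 3 UMIs in the smaller sum, a filter added after seeing the data that tests fewer genes, 576 were higher and 176 lower for AAA_14 over Sham, and 697 higher and 245 lower for AAA_7 over Sham. Thinned cells gave 568 higher for AAA_14 over AAA_7, 621 higher and 448 lower for AAA_14 over Sham and 734 higher for AAA_7 over Sham, and a mitochondrial limit of 5% gave 554 lower for AAA_14 over Sham.

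The share of inflammatory neutrophils in AAA_14 was 43.6% with at least 4 mediator UMIs, 43.2% with thinned cells, 57.4% with a mitochondrial limit of 20% and 38.4% with 5%, and that in AAA_7 was 87.7% with thinned cells. The cause of the shift with the mitochondrial limit was not tested.

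Ratios of precursor and fibroblast genes rested on the 2 AAA_14 cells. For AAA_14 over Sham, Elane, Mpo, Prtn3, Saa3 and Dcn had 0 UMIs in Sham, so their fitted values depend on the 0.5 counts added. Negative values for them do not mean a higher level in Sham. Elane was -2.51 with 4 mediator UMIs, -3.45 with thinned cells, -3.00 with a 5% limit, -2.31 without cells with fibroblast or precursor markers and -2.37 without its top cell, and Mpo was -1.29, -1.87, -0.19, -1.09 and -1.15. Prtn3 was -0.0082 with 4 mediator UMIs and -1.87 with thinned cells, Saa3 was -0.65 with thinned cells, and Dcn was -1.13 with thinned cells, -0.72 without marker cells and -0.81 without its top cell. For AAA_14 over AAA_7, Dcn was -0.78 without marker cells and -0.58 without its top cell, Mpo was -0.034 with 4 mediator UMIs and -0.24 without marker cells, and Prss2 was 0.90 with thinned cells and 1.27 without its top cell. Against other mature neutrophils of AAA_14, Tmsb10 was 1.03 without marker cells and 0.20 without its top cell, Atp5g2 was 0.39 and the oxidative phosphorylation median 0.060 without marker cells, and the MHC class II median was -0.70 with 4 mediator UMIs and -0.44 with thinned cells.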
